A study of Mus musculus with 160 samples.

Results

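The genes described here encode the enzymes, and their partner proteins, that make hydrogen peroxide, superoxide and nitric oxide in the colon: Duox2, Duoxa2, Nox1, Noxo1, Nos2, Cybb, Cyba and Ncf1. These 8 genes, out of 39179 counted in RNA-seq libraries of distal colon from 160 mice, are named by a rule that uses no measured value, although the set was proposed with earlier results of these data known. The rule sets the epithelial enzymes (Duox2 and Nox1) against those of phagocytes (Cybb and Ncf1).

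DUOX2 sits in the apical membrane of gut epithelial cells and releases hydrogen peroxide toward the lumen, and it leaves the endoplasmic reticulum only together with its maturation factor DUOXA2. NOX1 is the superoxide-making oxidase of colonic epithelium and works with the membrane subunit p22phox (gene Cyba) and the organizer protein NOXO1, while phagocytes such as neutrophils and macrophages use NOX2 (gene Cybb) with the same p22phox subunit and the organizer p47phox (gene Ncf1). NOS2, the inducible nitric oxide synthase, makes nitric oxide from arginine and is a well-known product of activated macrophages and of inflamed gut epithelium.

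The study compared mice homozygous for a knockout of an immune-cell gene with wild-type (WT) littermates in a colitis model, in which dextran sulfate sodium (DSS) in the drinking water damages the colonic epithelium. The Nckap1l line (also called HEM1) had 16 knockout (KO) and 15 WT samples, the Dock2 line 18 and 24, the Gpsm3 line 20 and 20, and the Dok3 line 26 and 21. Nckap1l, Dock2 and Gpsm3 mice were on the C57BL6/J background and Dok3 mice on strain 129. DSS was given for 5 days at 3% in the Dock2 and Gpsm3 lines and at 3.5% in the Dok3 line per the labels, which give no dose for the Nckap1l line, and tissue was taken on day 10, or on day 12 in the Nckap1l line after 7 days of water. Per the study's methods, Nckap1l mice received a lower dose than the others and Dok3 mice a lower dose than labelled in a first round, whose samples are not marked in the labels. The knockouts came from existing models crossed between heterozygotes, the mice were 8 to 10 weeks old, littermates of both genotypes shared cages, and both DSS-treated and untreated mice were collected. The labels do not say which mice were treated, so every group holds an unlabelled mixture of the 2, and this mixture is part of the spread described for every gene. An unequal share of treated mice between compared groups would also enter their differences, and the labels do not show it. The Gpsm3 and Dok3 samples are labelled male, while 12 of the 31 Nckap1l and 20 of the 42 Dock2 samples are female.

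Libraries held between 4344988 and 19993833 counts on genes, with 8 libraries under 10000000. All 8 epithelial markers were present, with a summed median of 9369 CPM (counts-per-million, the reads of a gene scaled to the size of its library), whereas the summed neutrophil markers ran from 20.8 to 8959 CPM, the skin markers up to 13280 CPM and the striated muscle markers up to 7033 CPM. In bulk tissue, fewer cells of a type and less RNA per cell cannot be told apart. Of the targeted genes, Gpsm3 fell in its own line (median 0.572 CPM in KO against 3.21 CPM in WT, adjusted p = 1.0e-04 with edgeR's quasi-likelihood test), while Nckap1l (14.8 against 27.2 CPM), Dock2 (22.5 against 34.2 CPM) and Dok3 (3.16 against 3.63 CPM) did not pass the test. Whole-gene counts do not show which exons an allele removes. In 5 samples of the Dok3 line the sex-linked genes went against the label.

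All 8 genes were measured in every library, the lowest value being 6 reads for Nos2. Positions are those of GRCm38, the build to which the authors mapped their reads. Duox2 lies on the minus strand at chr2:122279247-122298449 and Duoxa2 beside it on the plus strand at chr2:122298900-122302885. Nox1 (chrX:134086421-134221956) and Cybb (chrX:9435252-9487771) are both on the minus strand of the X chromosome. Noxo1 lies at chr17:24696234-24700529 and Nos2 at chr11:78920787-78960254, both on the plus strand, and Cyba (chr8:122424776-122432930) and Ncf1 (chr5:134220053-134229625) are on minus strands. Exons of Duoxa2, Nox1, Noxo1 and Ncf1 overlap exons of a gene on the other strand (Duoxa1, Cstf2, Tbl3 and Gtf2ird2). Whether the counting used strand is not given in the sources used here, so the counts of these 4 genes may hold some reads of their neighbours.

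The starts of Duox2 and Duoxa2 in RefSeq lie 673 bases apart and the genes are read away from each other. Their promoters are printed because the levels of the pair moved together, and those of Cybb and Ncf1 because they formed the other closely linked pair. Each runs from 250 bases before to 50 bases after the RefSeq start on GRCm38.p6, 5′ to 3′ on the gene's own strand, with capitals marking a match to one of the motifs named afterwards.
Duox2, chr2:122298178-122298477, minus strand: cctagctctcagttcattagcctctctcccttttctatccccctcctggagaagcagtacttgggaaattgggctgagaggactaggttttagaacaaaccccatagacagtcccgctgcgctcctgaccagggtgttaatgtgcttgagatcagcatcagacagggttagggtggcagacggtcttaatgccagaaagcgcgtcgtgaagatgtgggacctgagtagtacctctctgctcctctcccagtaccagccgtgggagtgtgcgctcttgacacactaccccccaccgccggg
Duoxa2, chr2:122298650-122298949, plus strand: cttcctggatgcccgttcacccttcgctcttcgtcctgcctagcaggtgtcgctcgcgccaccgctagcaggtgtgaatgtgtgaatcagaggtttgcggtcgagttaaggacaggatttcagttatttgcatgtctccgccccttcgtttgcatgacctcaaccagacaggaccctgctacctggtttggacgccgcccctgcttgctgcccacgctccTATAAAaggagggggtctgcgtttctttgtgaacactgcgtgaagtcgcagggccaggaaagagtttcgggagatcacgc
Cybb, chrX:9469275-9469574, minus strand: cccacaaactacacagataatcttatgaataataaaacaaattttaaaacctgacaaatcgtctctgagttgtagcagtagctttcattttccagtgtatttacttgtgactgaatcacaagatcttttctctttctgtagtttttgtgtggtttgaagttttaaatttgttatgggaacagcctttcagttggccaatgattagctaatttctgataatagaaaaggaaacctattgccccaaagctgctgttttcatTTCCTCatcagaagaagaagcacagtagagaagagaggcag
Ncf1, chr5:134229576-134229875, minus strand: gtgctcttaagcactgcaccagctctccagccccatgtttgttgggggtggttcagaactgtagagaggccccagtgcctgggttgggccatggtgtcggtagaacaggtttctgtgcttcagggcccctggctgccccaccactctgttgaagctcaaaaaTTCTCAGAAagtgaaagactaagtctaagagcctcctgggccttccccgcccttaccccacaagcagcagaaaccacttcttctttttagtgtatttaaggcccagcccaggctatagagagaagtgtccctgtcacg

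RefSeq promoters were found for 7 of the 8 genes and searched on both strands for the TATA box (letters TATAAA), the STAT core (letters TTCNNNGAA), the PU.1 core (letters GAGGAA), the CDX core (letters TTTATG) and the NF-kB motif. The RefSeq starts of Nox1 (chrX:134111854), Cybb (chrX:9469324) and Duox2 (chr2:122298227) lie inside the gene intervals given above, where the annotations differ. The windows searched for Nox1 and Cybb thus lie wholly within those intervals. Duoxa2 held TATAAA from -30 to -25 relative to its start, which 13.62% of 32851 RefSeq mouse promoters of this length also held somewhere. Cybb held GAGGAA on the opposite strand from 10 to 15 (28.28% of promoters), and Ncf1 held TTCNNNGAA from -88 to -80 (8.3%). Nox1 held GAGGAA from -23 to -18, the NF-kB motif from -91 to -82 on the opposite strand (8.46% of promoters) and TTTATG at -180 to -175 and, on the opposite strand, at 43 to 48 (11.85%). Duox2, Noxo1 and Cyba held none of the 5. These matches are a description of letters and overlap no measurement of binding.

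The members differed most in how much they varied. Nos2 spanned 0.382 to 1544 CPM over the 160 libraries, a ratio of 4038 between the highest and the lowest, and its log2 CPM had an SD of 2.58. Among the others the SD was 1.42 for Duoxa2, 1.09 for Duox2, 1.08 for Nox1, 0.893 for Ncf1, 0.843 for Cybb, 0.501 for Noxo1 and 0.453 for Cyba. The subunit gene that NOX1 and NOX2 share was thus the steadiest of the 8 and the nitric oxide synthase the most variable.

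**Figure D1:**
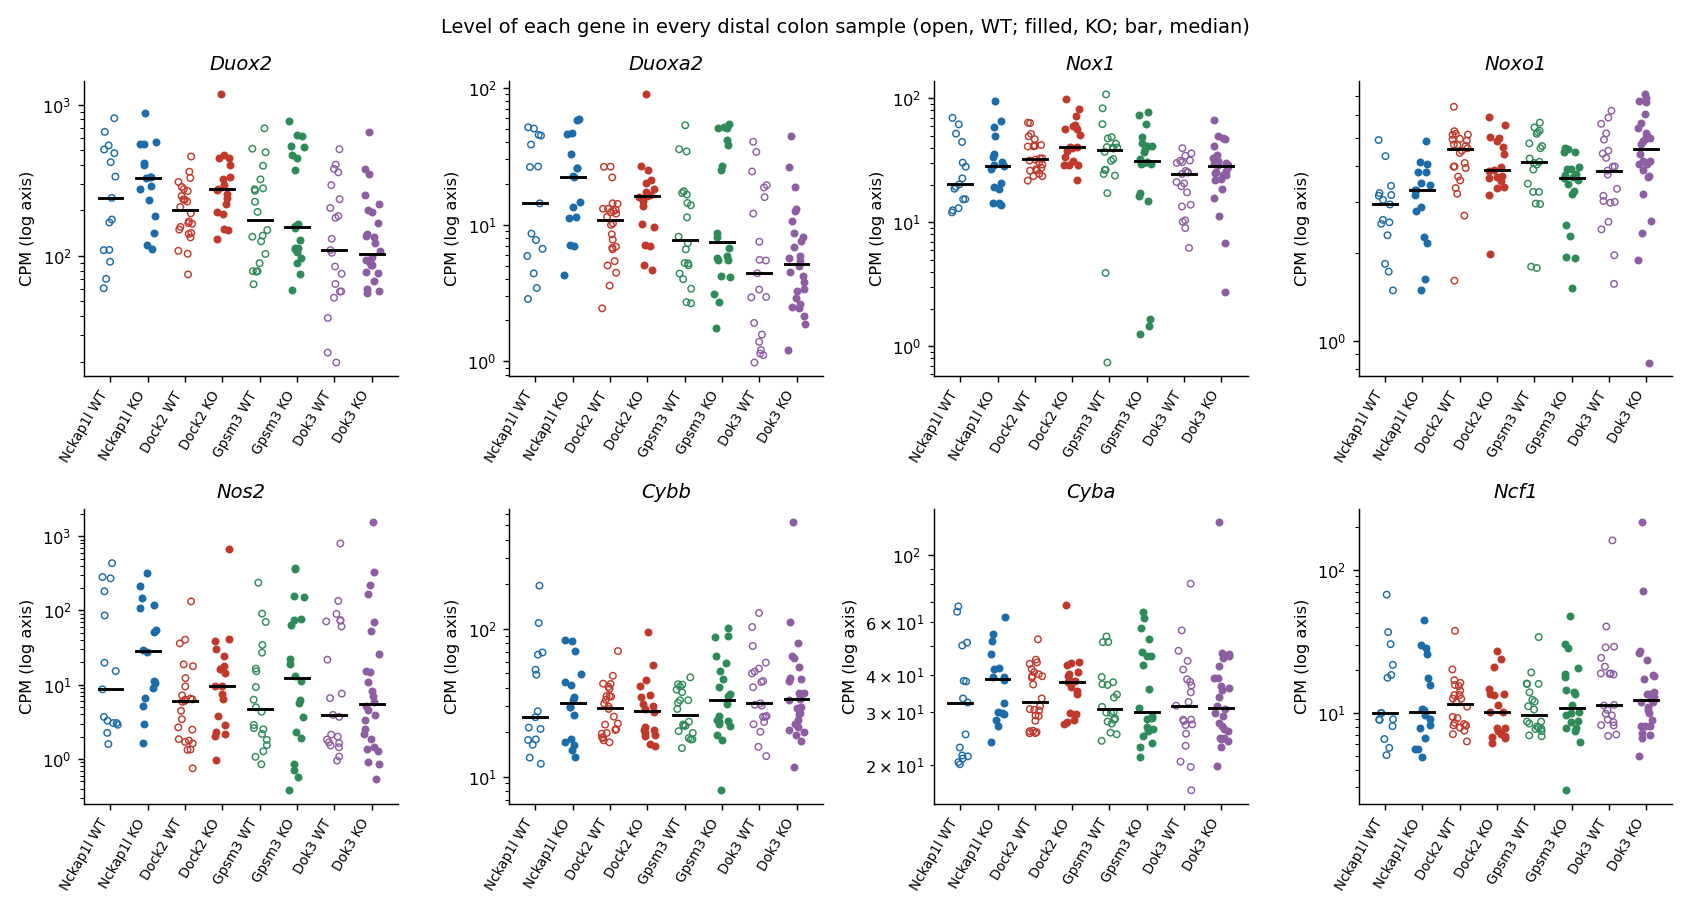
CPM of each of the 8 genes on a log axis in every library, by line and genotype, each point being 1 library and each bar the group's median. Nos2 covers the widest range in all 8 groups, and KO and WT points overlap for every gene in every line.

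Divided by exon length, Cyba and Duox2 gave the most RNA. Median levels in CPM per kb of exon were 31.7 for Cyba, 27.7 for Duox2, 9.14 for Nox1, 5.43 for Duoxa2, 5.14 for Cybb, 2.94 for Ncf1, 1.51 for Nos2 and 1.29 for Noxo1. The steps from Duox2 to Nox1 and from Cybb to Ncf1 held in 159 and 157 of the 160 libraries. The other neighbours were not separated: Cyba was above Duox2 in 96 libraries, Nox1 above Duoxa2 in 110, Duoxa2 above Cybb in 94, Ncf1 above Nos2 in 98 and Nos2 above Noxo1 in 89. Duox2 was first, ahead of Cyba, by group median in both Nckap1l groups and in Dock2 KO, and Cyba was first in the other 5 groups.

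Among the epithelial genes, Duox2 ran in KO samples, given as lowest, median and highest, at 111, 329 and 879 CPM for Nckap1l, 130, 276 and 1172 CPM for Dock2, 59.1, 156 and 781 CPM for Gpsm3 and 56.9, 103 and 663 CPM for Dok3. In WT samples of the same lines, Duox2 ran at 61.1, 243 and 816 CPM, at 75.4, 201 and 455 CPM, at 65.0, 172 and 700 CPM and at 19.7, 109 and 508 CPM. The ranges of KO and WT overlapped in each line, although the highest KO library of the Dock2 line lay well above any WT library of that line. Duoxa2, the maturation factor, had group medians from 4.41 CPM in Dok3 WT to 22.5 CPM in Nckap1l KO.

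Nox1 ran in KO samples at 13.9, 28.5 and 96.1 CPM (Nckap1l line), 21.9, 40.6 and 99.7 CPM (Dock2), 1.26, 31.5 and 77.1 CPM (Gpsm3) and 2.72, 28.4 and 67.5 CPM (Dok3). The WT samples of those lines had 12.0, 20.3 and 69.6 CPM, 21.7, 32.4 and 63.7 CPM, 0.737, 38.2 and 108 CPM, and 6.22, 24.6 and 39.6 CPM. Only the Gpsm3 and Dok3 lines held libraries under 10 CPM, and KO and WT overlapped in every line. Noxo1, which encodes the organizer protein of the NOX1 complex, stayed between 0.845 and 7.07 CPM in all libraries, with group medians from 2.95 CPM in Nckap1l WT to 4.58 CPM in Dok3 KO.

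Nos2 had KO values of 1.65, 28.2 and 320 CPM (Nckap1l), 0.957, 9.67 and 674 CPM (Dock2), 0.382, 12.2 and 373 CPM (Gpsm3) and 0.538, 5.52 and 1544 CPM (Dok3). The WT values were 1.59, 8.67 and 433 CPM, 0.753, 5.97 and 132 CPM, 0.847, 4.65 and 236 CPM, and 0.951, 3.93 and 797 CPM. In each group the highest library stood far above the median, and the ranges of KO and WT overlapped in every line.

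Of the phagocyte genes, Cybb, the catalytic subunit of NOX2, ran in KO samples at 13.5, 31.3 and 83.7 CPM (Nckap1l), 16.02, 27.9 and 95.2 CPM (Dock2), 8.09, 33.2 and 101 CPM (Gpsm3) and 11.7, 33.3 and 526.2 CPM (Dok3). In WT samples it ran at 12.2, 25.2 and 196 CPM, 17.1, 29.3 and 70.7 CPM, 15.6, 26.1 and 46.9 CPM, and 13.8, 31.3 and 128 CPM. The 8 medians of Cybb lay within 25.2 to 33.3 CPM, closer together than those of Duox2, and KO and WT overlapped in every line. Ncf1 had group medians from 9.61 to 12.2 CPM with single libraries up to 216 CPM, and Cyba, which serves NOX1 and NOX2 alike, had group medians from 30.0 to 38.9 CPM.

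The members were then compared with each other across the samples of a line. For each of the 28 pairs in each of the 4 lines, Pearson's r and Spearman's rho were taken over log2 CPM after the mean of each genotype had been subtracted, with p-values from 100000 permutations adjusted over all pairs and lines. Of these relations, 94 passed at 0.05 by Pearson's r (74 positive and 20 negative) and 94 by Spearman's rho. Gaps were searched only where at least 6 samples lay on each side, and the widest was 15.4% of the range (Nox1 in the Nckap1l line). Smaller groups were not searched. In the Gpsm3 line the low Nox1 libraries described at the end stood apart, at -2.83 or lower from their group means, with the next at -0.72. Differences of r between lines were not tested.

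Duox2 and its maturation factor Duoxa2 formed the tightest epithelial pair. Their r was 0.967 for Nckap1l, 0.935 for Dock2, 0.977 for Gpsm3 and 0.933 for Dok3 samples, with rho from 0.928 to 0.976 (adjusted permutation p = 1.87e-05 in each line, the smallest that these permutations can give). Without the 2 samples farthest from the median, r was between 0.905 and 0.973, and within the sample-number runs of a line it was between 0.921 and 0.989.

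Cybb and Ncf1, which encode a membrane and a cytosolic part of the phagocyte oxidase, were as closely tied. The r was 0.955, 0.953, 0.926 and 0.945 in the Nckap1l, Dock2, Gpsm3 and Dok3 lines, and rho ran from 0.914 to 0.950 (adjusted permutation p = 1.87e-05 in each). It stayed between 0.892 and 0.946 without the 2 farthest samples. Cyba followed the phagocyte genes, with r from 0.858 to 0.905 against Cybb and from 0.850 to 0.866 against Ncf1. It also rose with Duox2 (r from 0.591 to 0.809), Duoxa2 (0.656 to 0.859) and Nos2 (0.794 to 0.886), passing in all 4 lines. Against Nox1, Cyba passed in the Nckap1l line (0.523, but 0.264 after centring each sample-number run) and in the Dock2 line (0.662). It did not pass against Nox1 in the Gpsm3 (0.221) and Dok3 (0.027) lines.

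Nox1 and its organizer Noxo1 were not such a pair. The r of Nox1 and Noxo1 was 0.241 for Nckap1l, -0.008 for Dock2, 0.234 for Gpsm3 and 0.691 for Dok3 samples, and only the value of the Dok3 line passed (adjusted permutation p = 1.87e-05, rho 0.424, r 0.472 without the 2 farthest samples). Noxo1 ran against the inflammatory members instead. Its r with Nos2 lay between -0.646 and -0.505 and passed in 4 of 4 lines. With Ncf1 it lay between -0.625 and -0.463 and passed in 4 of 4 lines, but in the Dock2 line that value was -0.167 without the 2 farthest samples.

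The epithelial and the phagocyte enzymes were linked through Duox2 more than through Nox1, a contrast that was not itself tested. Duox2 rose with Cybb in all 4 lines (r = 0.769, 0.743, 0.733 and 0.491 in the Nckap1l, Dock2, Gpsm3 and Dok3 lines, rho from 0.657 to 0.802), each passing with an adjusted permutation p of 7.36e-04 or lower. Nox1 and Cybb gave r = 0.332, 0.478, 0.039 and -0.271 in the same order, and only the Dock2 line passed (adjusted permutation p = 0.00196). The Gpsm3 samples include the libraries of very low Nox1 described at the end. Their weight in the Nox1 correlations of that line, here and elsewhere, was not tested. Against Ncf1, Nox1 passed with opposite signs in the Dock2 line (0.435) and in the Dok3 line (-0.346, rho -0.106, and -0.209 without the 2 farthest samples). The epithelial oxidases also rose together, with r between Duox2 and Nox1 of 0.684, 0.665, 0.412 and 0.321, the last of which was 0.245 and did not pass without the 2 farthest samples.

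Nos2 was linked to both sides. Its r with Duoxa2 was between 0.794 and 0.911, with Duox2 between 0.654 and 0.897, with Cybb between 0.807 and 0.894 and with Ncf1 between 0.772 and 0.877, and all of these passed in 4 of 4 lines. Nos2 and Nox1 gave 0.562, 0.477, 0.140 and -0.301, with the value of the Dok3 line falling to -0.191 without the 2 farthest samples.

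**Figure D2:**
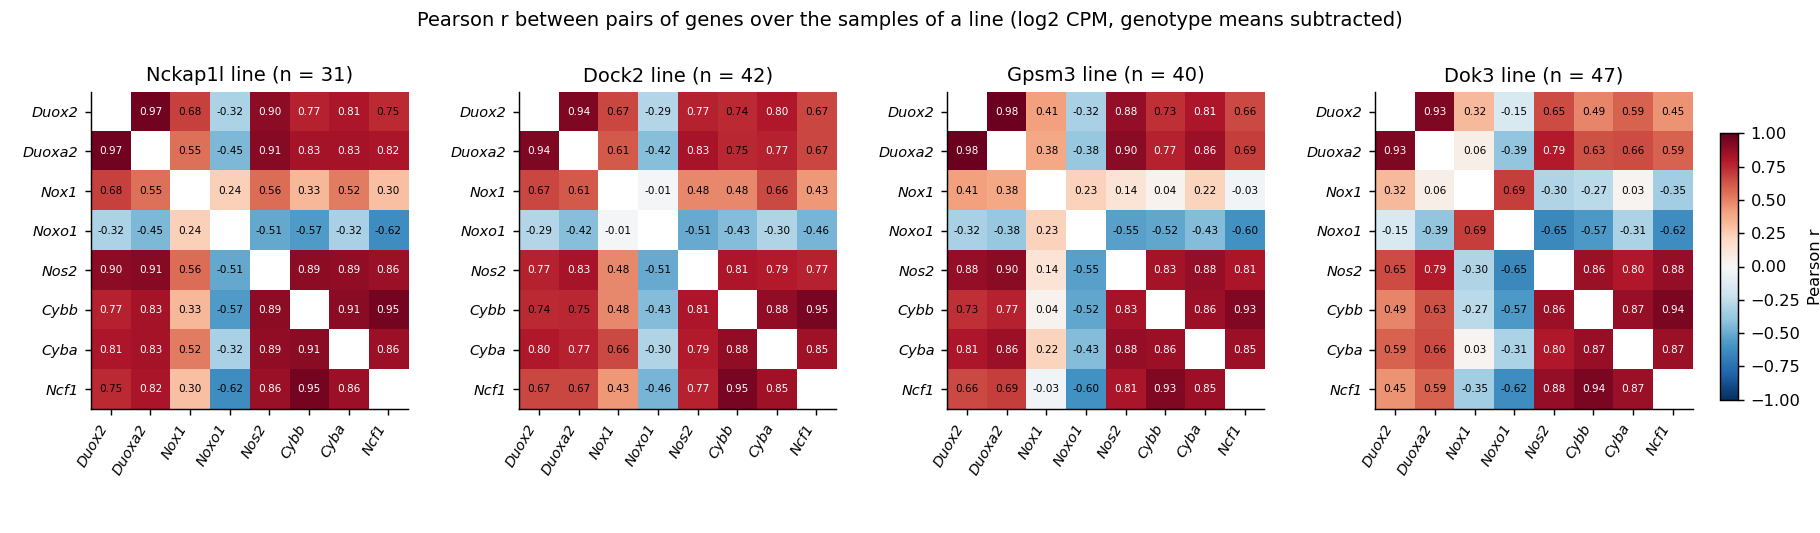
Pearson's r between each pair of the 8 genes within each line, over log2 CPM with the genotype means subtracted, on a color scale from -1 to 1. The blocks of Duox2 with Duoxa2 and of Cybb, Cyba and Ncf1 are high in all 4 lines, Noxo1 is negative against Nos2, Cybb and Ncf1, and Nox1 changes from line to line.

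**Figure D3:**
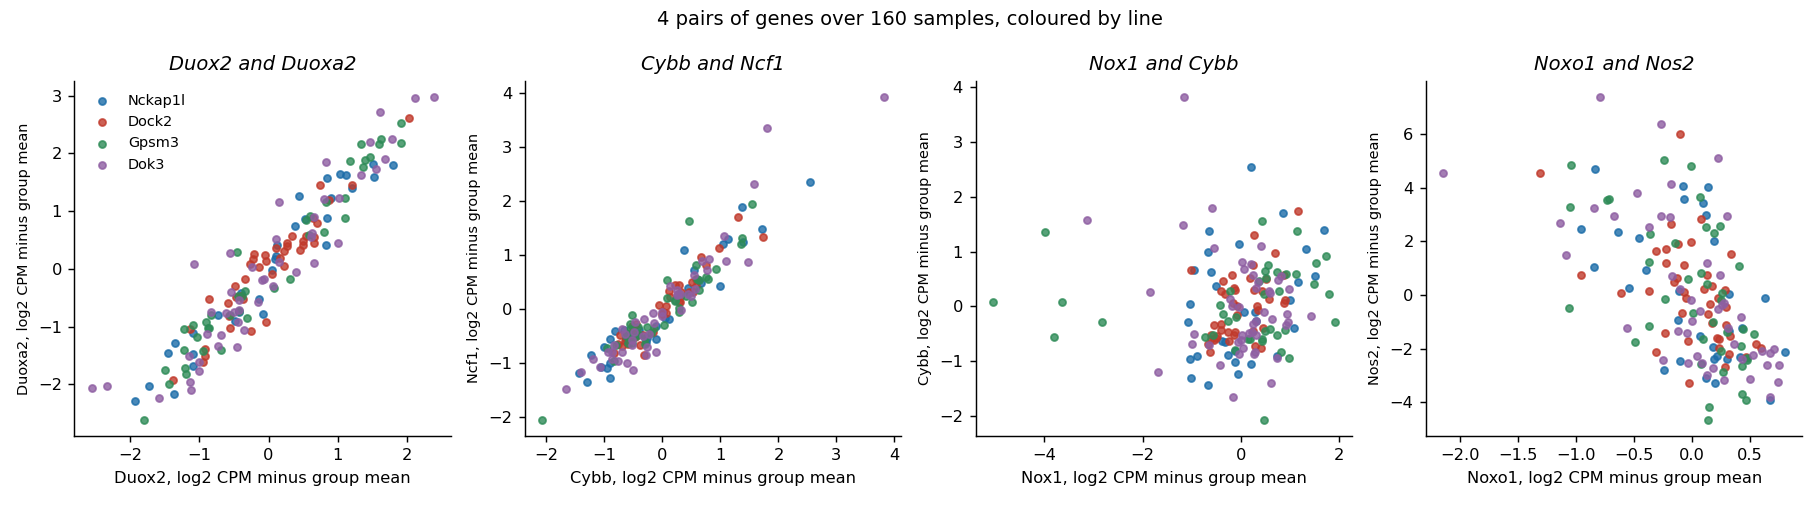
Log2 CPM, centred on the genotype mean of the line, for 4 pairs of members, each point being 1 of the 160 libraries colored by its line. Points of Duox2 and Duoxa2 and of Cybb and Ncf1 lie along a rising line, those of Nox1 and Cybb scatter, and Nos2 falls as Noxo1 rises.

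Against markers of cell types, each list taken as the mean log2 CPM of its genes, the members split in another way. The 8 genes and 5 marker lists (epithelium, neutrophil, macrophage and monocyte, T cell and B cell) in 4 lines gave 160 relations, of which 120 passed by Pearson's r (102 positive) and 117 by Spearman's rho. No member is in any of these lists. The r with the macrophage and monocyte list was 0.924 to 0.951 for Cybb and 0.917 to 0.949 for Ncf1, and with the neutrophil list 0.830 to 0.922 for Ncf1 and 0.822 to 0.916 for Nos2. Noxo1 was negative against the neutrophil list in 4 of 4 lines, from -0.749 to -0.666. The T cell list gave 0.601 to 0.825 for Cybb and -0.592 to -0.114 for Noxo1, and the B cell list 0.309 to 0.655 and -0.094 to 0.146.

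The epithelial genes did not all follow the epithelial markers. Nox1 rose with the epithelial markers in the Nckap1l (r = 0.474), Dock2 (0.560) and Dok3 (0.853) lines, and gave 0.098 in the Gpsm3 line, which did not pass. Noxo1 gave 0.670 (Nckap1l), 0.160 (Dock2), 0.391 (Gpsm3) and 0.806 (Dok3), and all but the value of the Dock2 line passed. Duox2 against the same list gave r between 0.009 and 0.235 and Duoxa2 between -0.138 and 0.161, which passed in none of the 4 lines. Against the neutrophil list, by contrast, Duox2 gave 0.50 to 0.749 and Duoxa2 0.673 to 0.787, passing in 4 of 4 lines. This was not particular to the neutrophil markers. The macrophage and monocyte list gave 0.541 to 0.775 for Duox2 and 0.707 to 0.819 for Duoxa2. The T cell list gave 0.526 to 0.727 and 0.549 to 0.786, and all of these passed too. The B cell list passed for both genes except in the Dock2 line (-0.013 and -0.083). The part that cell numbers, RNA per cell or treatment had in these relations was not tested.

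The genes most like each member by Pearson's r of log2 CPM over all 160 libraries, with the mean of each line and genotype subtracted, out of 19848 others, are given as a description. Duox2 was closest to Duoxa2 (r = 0.953), Trim40 (0.887) and Tnip3 (0.862), and Duoxa2, after Duox2, to Clca4b (0.882) and Trim15 (0.875). Nox1 was closest to Cstf2 (0.848), whose exons it overlaps, then to Cldn2 (0.828), a claudin of leaky epithelial junctions, and Isyna1 (0.801). Noxo1 was closest to Gm53 (0.871), Acss1 (0.856) and D630039A03Rik (0.856). Nos2 was closest to Zc3h12a (0.914), an RNase that degrades cytokine transcripts, Tnfrsf1b (0.904), a TNF receptor, and Fcgr4 (0.898), an Fc receptor. Cybb was closest to Mpeg1 (0.968), the pore-forming protein perforin-2 of macrophages, Laptm5 (0.954) and Myo1f (0.952), Ncf1 to Lcp1 (0.971), Hcls1 (0.970) and Itgb2 (0.962), all leukocyte genes, and Cyba to Lyn (0.904) and Gusb (0.903).

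The first comparison of the design asked whether loss of each immune-cell gene altered the colon. No member passed the test in any line with edgeR's quasi-likelihood test, Benjamini-Hochberg adjustment over all genes and a threshold of 0.05. The share of all genes called was 0% for Nckap1l (0 of 17947), 0.034% for Dock2 (6 of 17648), 0.00569% for Gpsm3 (1 of 17560) and 0% for Dok3 (0 of 17612), so that few genes of any kind were called. DESeq2 and limma-voom called 0 members too. At an unadjusted p under 0.05 there were 4 members for Dock2, 1 for Gpsm3 and 0 for the others.

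In the Dock2 line those 4 were Duox2, with a log2 fold change (KO over WT) of 0.62 ± 0.22 (SE) and adjusted p = 0.621, Duoxa2 (0.72 ± 0.28, adjusted p = 0.783), Nox1 (0.39 ± 0.15, adjusted p = 0.790) and Nos2 (1.36 ± 0.60, adjusted p = 0.906). The Nos2 estimate rested on a single library: without Dock2_KO replicate 3, which had 674 CPM, it was 0.16. That library also had the highest Duox2 (1172 CPM), Duoxa2 (89.7 CPM) and Nox1 (99.7 CPM) of the line. The estimates of these genes without it are not given. Cybb, Cyba and Ncf1 of the same line had log2 fold changes between -0.08 and 0.12. In the Gpsm3 line the member was Cybb, with 0.54 ± 0.23 and adjusted p = 0.936.

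The intervals show how much could have been missed. The 95% interval of the log2 fold change of Nos2 reached from -2.16 to 1.14 for Nckap1l, from 0.19 to 2.54 for Dock2, from -0.19 to 2.87 for Gpsm3 and from -1.15 to 2.29 for Dok3. That of Cyba was the narrowest or nearly so, for instance -0.07 to 0.30 in the Dock2 line. For Nos2 in the Nckap1l line the interval lay mostly below 0, although the median given earlier was higher in KO than in WT samples. Which libraries set that estimate was not tested. No member passed a test of whether the knockout effect differed between lines (0 of 8 called, 0.69% of 19849 genes called, smallest unadjusted p = 0.0928 for Noxo1), and none passed between females and males of the Nckap1l line (0% of genes called) or the Dock2 line (0.198%), where 0 members had an unadjusted p under 0.05 in either.

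**Figure D4:**
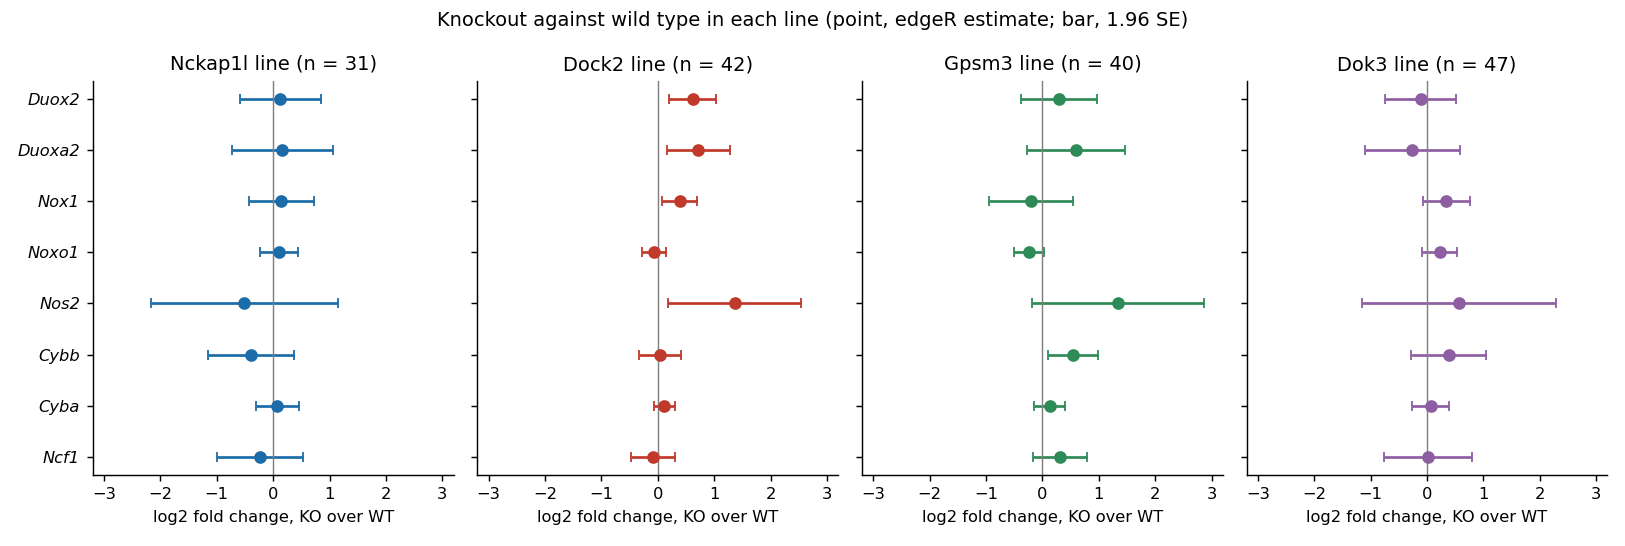
Log2 fold change of KO over WT for each of the 8 genes in the 4 lines, with points at the estimate of edgeR and bars for the 95% interval. The intervals of Nos2 are the widest and those of Cyba and Noxo1 narrow, and none of the estimates passed the adjusted threshold.

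The partner genes gave 0 calls as well. Of the 12 genes of oxidase partners (such as Ncf4 and Rac2 of the phagocyte oxidase), 11 had enough reads to be tested, with 0 higher and 0 lower in each of the 4 lines. Of the 12 genes of nitric oxide and arginine metabolism (such as Arg1, which degrades arginine, and Gch1, which makes the cofactor of nitric oxide synthases) 12 were tested, and of the 5 peroxidases 2, with 0 called in each line.

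Sex could be compared in 2 lines. In the Dock2 line Nos2 ran at 0.753, 3.35 and 17.8 CPM (lowest, median and highest) in 20 females and at 1.77, 8.51 and 674 CPM in 22 males. The female and male ranges overlapped, but the upper end of the males lay far above any female. The log2 fold change of females over males was -2.70 ± 0.64 (fold 0.154, adjusted p = 0.00576 with edgeR's quasi-likelihood test), and Nos2 was the only one of the 8 members called, where 10.1% of all genes were.

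The same order of medians stood within each genotype of the Dock2 line, with 2.17 CPM in WT females, 6.32 CPM in WT males, 6.74 CPM in KO females and 20.3 CPM in KO males. The size of the Nos2 difference depended on a pair of male libraries. It was -1.78 without Dock2_KO replicate 3 (adjusted p = 0.0215), -2.23 without Dock2_WT replicate 13 (0.0197) and -1.29 without both (0.0576). It did not pass with limma-voom (-1.61, adjusted p = 0.0944), in WT samples alone (-2.14, 0.0984) or with the neutrophil markers as a covariate (-0.79, 0.179). The summed neutrophil markers ran from 21.3 to 345 CPM in the females (median 55.8 CPM) and from 46.5 to 2361 CPM in the males (median 74.7 CPM), and their part in the difference was not tested beyond that covariate. The share of treated mice in each sex is not labelled, and its part was not tested.

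Among the partner genes of that line, Rac1, the GTPase that switches on NOX1, was lower in females (-0.23 ± 0.04, adjusted p = 1.31e-04) and so was Rap1a (-0.09, adjusted p = 0.0366), 2 of 11 tested where 10.1% of all genes were called. In the Nckap1l line 0 of 8 members were called between 12 females and 19 males (0.192% of all genes), and 0 had an unadjusted p under 0.05. There Nos2 ran at 1.59, 9.54 and 271 CPM in females and 1.65, 27.4 and 433 CPM in males (-1.07 ± 0.90, adjusted p = 0.571). Sex was unevenly spread over the sample-number runs of that line, the 9 samples of run 2 being all male and 9 of the 12 females belonging to run 1, and with run as a covariate the Nos2 estimate turned to 1.03 (adjusted p = 0.868). Nox1 and Cybb, though on the X chromosome, were called in neither line. Whether the sex difference of Nos2 differed between the lines was not tested.

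The lines were compared in WT samples labelled male, 21 of the Dok3, 20 of the Gpsm3, 12 of the Dock2 and 7 of the Nckap1l line. In 2 of these Dok3 samples the sex-linked genes went against the label. They were kept, and without them 29.4% of all genes were called in Dok3 against Gpsm3. Lines differed in strain, DSS dose and, for Nckap1l, day as well as in their colony and libraries, and these cannot be told apart. In Dok3 against Gpsm3 males 2 members passed, where 27.2% of all genes did. Nox1 was lower in the Dok3 line (6.22, 24.6 and 39.6 CPM, against 0.737, 38.2 and 108 CPM) by a log2 fold change of -0.75 ± 0.27 (adjusted p = 0.0303), and Ncf1 higher (6.88, 11.3 and 161 CPM, against 6.85, 9.61 and 33.9 CPM) by 0.95 ± 0.32 (adjusted p = 0.0232).

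The ranges of the 2 lines overlapped for both genes. Cybb was next, with 0.62 ± 0.25 (adjusted p = 0.0566), and passed with DESeq2 (0.63, adjusted p = 0.0399). The Nox1 value did not pass with the skin markers as a covariate (-0.34, adjusted p = 0.348) or with limma-voom (-0.45, 0.350). Ncf1 rested on 1 library, being 0.43 (adjusted p = 0.224) without Dok3_WT replicate 18, and it did not pass with limma-voom (0.56, adjusted p = 0.154). The summed skin markers ran from 7.79 to 9166 CPM in the Dok3 males and from 4.29 to 12870 CPM in the Gpsm3 males, and the neutrophil markers from 27.3 to 4465 CPM and from 35.04 to 1024 CPM.

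None of the other 5 pairs of lines called a member with edgeR, DESeq2 or limma-voom. With all WT samples and sex as a covariate, 1 member was called in Dok3 against Dock2 (Nox1), where 10.6% of all genes were. In Dok3 against Nckap1l 1 was called (Noxo1, 11.5% of all genes). Nckap1l against Gpsm3 gave 3 (Noxo1, Nos2 and Cybb, 24.1%) and Nckap1l against Dock2 gave 2 (Noxo1 and Nos2, 15.4%). With neutrophil markers as a covariate 1 was called in Dok3 against Dock2 (Ncf1), where 9.38% of all genes were. In WT males alone, the share of all genes called was 5.33% for Dok3 against Dock2 and 5.63% for Dok3 against Nckap1l. It was 1.94% for Nckap1l against Gpsm3, 0.0459% for Nckap1l against Dock2 and 0.189% for Dock2 against Gpsm3. At an unadjusted p under 0.05 these pairs gave 2, 3, 3, 3 and 0 members. Nckap1l WT males had the highest medians of Duox2 (417 CPM, against 190, 172 and 109 CPM in Dock2, Gpsm3 and Dok3) and of Nos2 (15.3 CPM, against 6.32, 4.65 and 3.93 CPM). Of these 7 samples, the 4 from sample-number run 2 had 417 to 816 CPM of Duox2 and the 3 from runs 1 and 3 had 61.1, 70.6 and 110 CPM.

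**Figure D5:**
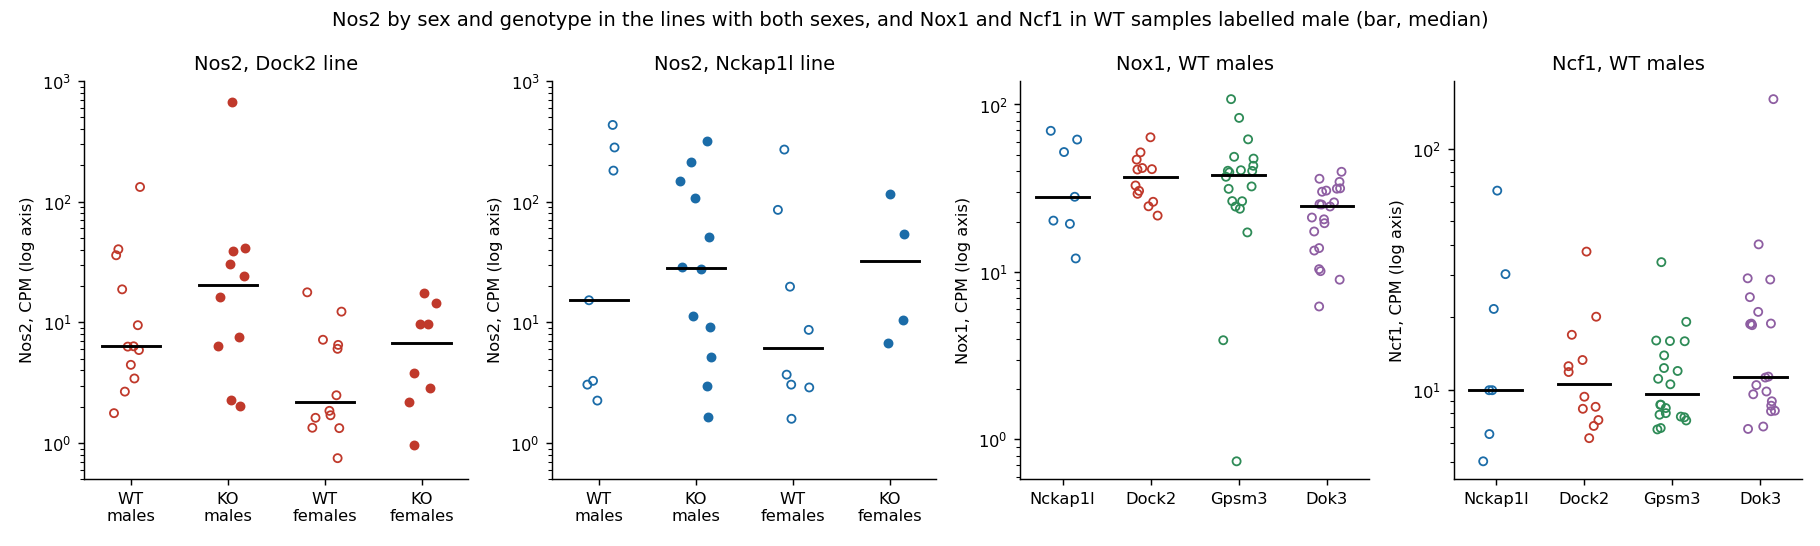
CPM of Nos2 by sex and genotype in the Dock2 and Nckap1l lines, and of Nox1 and Ncf1 in the WT samples labelled male of the 4 lines, on log axes, with 1 point for each library (open for WT, filled for KO) and a bar at the median. No female of the Dock2 line exceeds 17.8 CPM of Nos2 while males reach 674 CPM, and Nox1 and Ncf1 overlap between lines.

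One partner gene separated the lines by larger fold changes than any member. Lpo, which encodes lactoperoxidase, a secreted enzyme that uses hydrogen peroxide against microbes, ran at 8.39, 140 and 615 CPM in Dok3 WT males, at 1.11, 8.52 and 46.1 CPM in Gpsm3, at 3.14, 10.1 and 39.1 CPM in Dock2 and at 4.38, 14.5 and 33.0 CPM in Nckap1l WT males. The Dok3 range overlapped the others only at its lower end. Lpo was higher in the Dok3 line by log2 fold changes of 3.96 ± 0.48 (adjusted p = 6.57e-09), 3.87 ± 0.59 (4.61e-06) and 3.73 ± 0.75 (8.41e-04) against the Gpsm3, Dock2 and Nckap1l lines, comparisons that share the Dok3 samples. It passed in all 8 alternatives of each comparison.

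Against the Gpsm3 line, 6 of the 11 oxidase partners tested were higher in Dok3 WT males and 0 lower, with a median log2 fold change of 0.47 over the list and 0.01 over all genes, of which 27.2% were called in either direction. Those of smallest p were Nox4 (0.65 ± 0.16), Ncf4 of the phagocyte oxidase (1.02 ± 0.29), Duox1 (1.84 ± 0.58) and its maturation factor Duoxa1 (1.23 ± 0.42). Of the 12 genes of nitric oxide and arginine metabolism, 3 were higher and 5 lower, against the same 27.2% of all genes. Those of smallest p were Spr (-0.26 ± 0.05) and Gchfr (-0.57 ± 0.17), which make or regulate tetrahydrobiopterin, the cofactor of nitric oxide synthases, Arg1 (3.16 ± 0.77) and Asl (-0.18 ± 0.05), which makes arginine. The 2 peroxidases tested, Lpo and Pxdn (0.36 ± 0.12), were both higher. Against the Dock2 line 2 of the 12 were lower, Gch1 (-0.54 ± 0.15, adjusted p = 0.0176) and Spr (-0.19 ± 0.06, adjusted p = 0.0281), and against the Nckap1l line Gch1 (-0.79 ± 0.17, adjusted p = 0.00244) and Gchfr (-0.81 ± 0.22, adjusted p = 0.0183). With the skin markers as a covariate the Arg1 difference was 0.73 and did not pass.

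Sample numbers in the labels fall into runs of consecutive numbers, and what a run stands for is not stated. In the Nckap1l line, run 2 differed from run 1 in 3 of 8 members in a fit with genotype and sex, where 21% of all genes differed. All 9 samples of run 2 are male and 9 of the 14 of run 1 female, so that run and sex are largely confounded and the ranges that follow mix the sexes. Duox2 ran at 61.1, 260 and 663 CPM in run 1 and at 143, 506 and 879 CPM in run 2 (log2 fold change 1.45 ± 0.49, adjusted p = 0.0356). Nox1 ran at 12.0, 19.02 and 44.5 CPM in run 1 and at 27.0, 52.0 and 96.1 CPM in run 2 (1.40 ± 0.35, adjusted p = 0.00679). Cyba was higher as well (0.74 ± 0.24, adjusted p = 0.0325), and run 3 differed from run 1 in 0 members (31.2% of all genes).

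Runs 1 and 2 overlapped in each of these genes. The summed skin markers had medians of 3579 CPM in run 1, 10.6 CPM in run 2 and 5.98 CPM in run 3, and the epithelial markers 7453, 9772 and 9443 CPM. The neutrophil markers had medians of 68.9, 194 and 55.5 CPM in runs 1 to 3, the macrophage and monocyte markers 470, 705 and 465 CPM and the B cell markers 1.90, 33.8 and 1.62 CPM, each highest in run 2. Their part in the difference was not tested. The runs of the Gpsm3 line (7.93% of all genes called) and of the Dok3 line (0.14%) differed in 0 members.

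Of the partner genes, run 2 of the Nckap1l line had 3 of 11 oxidase partners higher than run 1 and 1 lower, among them Rac1 (0.17 ± 0.06), the NOX1 activator gene Noxa1 (0.82 ± 0.28) and Duox1 (-1.82 ± 0.66). It had 4 of 12 genes of nitric oxide and arginine metabolism higher and 2 lower, led by Ass1 (0.82 ± 0.15) and Asl (0.37 ± 0.08), the enzymes that remake arginine from citrulline, Nos1 (-0.95 ± 0.25) and the arginine transporter gene Slc7a2 (-1.43 ± 0.44), and Lpo was higher (1.69 ± 0.54). Run 3, which differed from run 1 in 31.2% of all genes, had 3 oxidase partners higher and 2 lower, led by Duox1 (-3.23 ± 0.68), Noxa1 (0.82 ± 0.25), Rac1 (0.16 ± 0.05) and Duoxa1 (-1.50 ± 0.51). Of the nitric oxide and arginine genes 2 were higher in run 3 and 4 lower, led by Slc7a2 (-1.79 ± 0.41), Nos1 (-0.94 ± 0.24), Arg1 (-3.52 ± 1.04) and Asl (0.23 ± 0.07). In the Gpsm3 line Rap1a was lower in run 2 (-0.13 ± 0.04) and Pxdn higher (0.31 ± 0.09).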

How the data were processed

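Total RNA of mouse distal colon was depleted of ribosomal RNA, made into stranded libraries (KAPA) and sequenced as single 100 bp reads. The authors used STAR for mapping to mm10 and featureCounts (Subread) for gene counts. Versions, annotation and strand setting are not given in the sources used here. The deposited files hold raw counts of 39179 Ensembl genes per sample, without normalization. Symbols came from the GENCODE annotation of GRCm38 (37607 genes, 96.0%) and promoters from RefSeq (GRCm38.p6).

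Groups follow the labelled line and genotype. Total counts ran from 4344988 to 19993833, and 3 reads corresponded to 0.15 to 0.69 CPM. P-values measure the spread between these samples. CPM used TMM library sizes, and log2 CPM a prior count of 2. Counts were tested with filterByExpr and the quasi-likelihood test of edgeR 4.0.16 (R 4.3.3), with a sex term for the Nckap1l and Dock2 lines, Benjamini-Hochberg adjustment over all genes and a threshold of 0.05. The SE is the log2 fold change divided by the square root of F, and intervals are 1.96 SE. Alternatives included limma-voom (the study's method, limma 3.58.1), DESeq2 1.42.0, other filters, covariates and left-out samples, of which the skin covariate and the left-out libraries were chosen after seeing the data. Correlations used scipy 1.17.1 with 100000 permutations. Marker lists entered correlations and covariates as the mean log2 CPM of their genes, while the printed marker levels are summed CPM. The fits were also run on simulated counts with known changes, which held no mixture of treated and untreated mice and no sample-number runs. That simulation cannot show how the fits behave under such a mixture. The 8 members, the partner and marker lists and the motifs were chosen with earlier results of these data known. All 8 members are named, as are up to 4 partner genes past the threshold in each list and comparison (smallest p first) and the 3 genes closest to each member, except 1 gene that is not reported here. Within each group of line and genotype, no library was a duplicate of another. Libraries of different groups were not compared in this way.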

Additional observations from a re-analysis of the deposited data

Results flagged for a closer look

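Groups of 4 to 10 samples sharing line, genotype and sex were searched for a sample far from the others, 5 groups and 8 genes in 40 combinations, and chance picks out about 1 in 20. In 3 combinations the highest sample stood apart, each time Dock2_KO replicate 3, 1 of 10 male knockouts of the Dock2 line. It had 89.7 CPM of Duoxa2, with 26.9 CPM in the next sample. It had 674.0 CPM of Nos2, with 41.7 CPM in the next, and 68.6 CPM of Cyba, with 44.1 CPM in the next. The tests of Nos2 with and without this library are given with the knockout and sex comparisons.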

How the results depend on the processing

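Of 108 alternative counts of members called, 96 stayed within 1.5 times the reported count and 12 moved. Between females and males of the Dock2 line the count of 1 went to 0 with limma-voom, with neutrophil markers as a covariate, in WT samples only and without both libraries of highest Nos2. For Dok3 against Gpsm3 WT males the count of 2 went to 0 with limma-voom, to 1 without Dok3_WT replicate 18 (Nox1) and to 1 with skin markers as a covariate (Ncf1). With neutrophil markers as a covariate Duox2 (-0.74, adjusted p = 0.0394), Duoxa2 (-0.93, 0.0331) and Nox1 passed in that comparison and Ncf1 (0.31, 0.0823) did not. With all WT samples and sex as a covariate, in place of males alone, the count of 0 became 1 for Dok3 against Dock2 (Nox1), 1 for Dok3 against Nckap1l (Noxo1), 3 for Nckap1l against Gpsm3 (Noxo1, Nos2 and Cybb) and 2 for Nckap1l against Dock2 (Noxo1 and Nos2). Those fits called 10.6%, 11.5%, 24.1% and 15.4% of all genes, in the same order. With neutrophil markers as a covariate the count of 0 became 1 for Dok3 against Dock2 (Ncf1), where 9.38% of all genes were called. The cause of these changes was not tested. Leaving out the library of highest Nos2 left the count at 0 in the knockout comparisons of the Dock2 and Dok3 lines. Of 816 alternative values of single members, 794 kept their side of the threshold, 9 no longer passed, 13 passed newly and 0 reversed, and 106 that passed in neither setting changed sign.

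Of the 94 correlations between members that passed, the number was 94 with a prior count of 0.5, 93 after centring each sample-number run and 87 without the 2 farthest samples. No paired analysis was possible because the labels give no replicate numbers that groups share. The main limits are that DSS treatment is not labelled, that 8 libraries are under 10000000 counts, and that Noxo1 had the lowest median count of the members (59 reads).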

Other observations

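Nox1 was low in 6 libraries, which were picked out for their Nox1 values and are given without a test. In the Gpsm3 line, whose median was 34.6 CPM, 5 libraries had 0.737, 1.26, 1.47, 1.66 and 3.91 CPM, and all 5 belong to the first run of sample numbers of that line. They were Gpsm3_WT replicates 10 and 9 and Gpsm3_KO replicates 10, 9 and 6, so both genotypes were among them. Their summed epithelial markers ran from 8758 to 12970 CPM, against a line median of 10230 CPM. Smooth muscle markers were at 5341, 6366, 6453 and 6960 CPM in 4 of the 5 and at 3184 CPM in Gpsm3_WT replicate 10, against a line median of 3429 CPM. Neutrophil markers ran from 78.6 to 269 CPM, all above the line median of 67.8 CPM, and skin markers were at 12870 CPM in Gpsm3_WT replicate 10 and at 6.12 to 7.60 CPM in the others (line median 6.65 CPM). The overlapping gene Cstf2 was at 4.98 to 5.38 on the log2 CPM scale, against a line median of 5.93. On that scale Cldn2 was at 1.22 to 5.05, against 6.89, and Mki67 at 5.045 to 7.47, against 8.60. Both were among the genes closest to Nox1 (r = 0.828 and 0.766 over all libraries, these included). The part of these differences in the low Nox1 was not tested.

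Duox2 was below its line's median in 5 of these 6 libraries and above it in 1. Of the Gpsm3 libraries, 4 had 78.8 to 113 CPM of Duox2, against a line median of 156 CPM, while Gpsm3_KO replicate 10 had 1.26 CPM of Nox1 with 623.5 CPM of Duox2 and 150 CPM of Nos2. In the Dok3 line, Dok3_KO replicate 12 had 2.72 CPM of Nox1, 60.1 CPM of Duox2 (line median 107 CPM), the lowest Noxo1 of all libraries (0.845 CPM) and summed epithelial markers of 1857 CPM, against a line median of 9350 CPM. Its summed neutrophil markers were 1816 CPM and its skin markers 6692 CPM.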
